A study of Homo sapiens with 16 samples.

Results

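CA8 and the 3 inositol 1,4,5-trisphosphate (IP3) receptor genes, ITPR1, ITPR2 and ITPR3, were followed through cardiomyocytes made from human pluripotent stem cells (hPSC-CMs) and kept in different culture media. They are 4 of the 43388 genes in the expression table. The receptors were taken as the family that CA8 acts on. CA8 itself was selected on its own values in these libraries, its higher level in both 5 mM glucose media than in standard medium on Day 30, so those 2 differences are described here and not tested. All 4 genes averaged at least 1 TPM (transcripts per 1000000) over the 16 libraries, the minimum for a gene to be compared, and 0 of the 4 averaged 5 TPM.

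The cells came from WTC11, a wild-type human induced pluripotent stem cell line, through one differentiation that was frozen at the cardiac progenitor stage. Bulk RNA was sequenced from 4 wells in each of 4 groups. The Day 16 RPMI/B27 group was the starting point, in standard RPMI medium with the B27 supplement. The other groups were taken on Day 30 after 2 further weeks in the same RPMI/B27, in RPMI_glcM/B27, which is RPMI with glucose lowered to 5 mM, or in HPLM/B27, in which Human Plasma-Like Medium, built on the metabolite content of plasma with the same 5 mM glucose, replaced RPMI. Wells of one differentiation of a single line were the replicates, so each SD and p-value measures the spread between wells only.

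CA8, carbonic anhydrase-related protein VIII, has the fold of a carbonic anhydrase but lacks the zinc-binding histidine needed to hydrate carbon dioxide. It binds the regulatory domain of ITPR1 and lowers the affinity of that receptor for IP3, and it is best known from cerebellar Purkinje neurons. IP3 receptors are tetrameric channels of the endoplasmic reticulum that release calcium when hormones acting through Gq proteins and phospholipase C raise IP3. In working cardiomyocytes the ryanodine receptor RYR2 carries the release that drives each beat, and IP3 receptors are the minor release channels, linked to nuclear calcium and hypertrophic signalling, with ITPR2 usually named as the main cardiac form.

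In GENCODE 44 on GRCh38 CA8 lies on the minus strand at chr8:60185412-60281400, and its canonical transcript has 9 exons. The receptors are far larger transcripts from dispersed loci, with 62 exons for ITPR1 on the plus strand at chr3:4493345-4847506, 57 for ITPR2 on the minus strand at chr12:26335352-26833194 and 58 for ITPR3 on the plus strand at chr6:33620365-33696574. TPM divides reads by gene length, so levels of different genes are compared on that scale. UQCC2, transcribed from the strand opposite to ITPR3 at a mean of 55.2 TPM, overlaps the ITPR3 locus, and the strand setting used for counting is not given in the sources used here, so ITPR3 values may hold reads of UQCC2.

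Each library held between 5585897 and 11267270 reads, as recovered from the table without the mitochondrial ribosomal RNA gene RNR2. The number of reads behind a value was 36 to 410 for CA8, 116 to 272 for ITPR1, 105 to 285 for ITPR2 and 27 to 102 for ITPR3. The 8 cardiomyocyte markers were all present, at a summed 11173 to 15213 TPM per library, and the labelled cell type was met by its markers. Ribosomal RNA carry-over differed between libraries, with the mitochondrial ribosomal RNA gene RNR1 between 49.5 and 29276 TPM and above 1000 TPM in 1 of 4 libraries of Day 16, 3 of 4 of Day 30 RPMI/B27 and 2 of 4 in each 5 mM glucose medium. RNR2 made up 41.4% to 43.9% of all TPM on Day 16 and 41.0% to 48.1% in Day 30 RPMI/B27. It made up 42.0% to 45.5% in RPMI_glcM/B27 and 46.2% to 48.3% in HPLM/B27. The 7SK RNA gene RN7SK made up 8.76% to 10.4% on Day 16 and 10.7% to 13.8% over the Day 30 libraries. The part of RNR2 and RN7SK in the TPM of other genes was not tested. Over all 16122 genes compared, the median log2 fold change against Day 16 was -0.28 for RPMI/B27, -0.22 for RPMI_glcM/B27 and -0.29 for HPLM/B27, so a fall of that size from Day 16 is the position of the average gene. Median-of-ratios rescaling, which centres most genes on no change, turned 336 higher and 2867 lower genes in Day 30 RPMI/B27 against Day 16 into 1389 and 1437. The same rescaling turned 538 and 2862 into 2156 and 2282 for RPMI_glcM/B27, and 483 and 3605 into 2074 and 2012 for HPLM/B27. Within Day 30 the medians were between -0.06 and 0.05, and the rescaling changed 219 higher and 135 lower genes into 995 and 950 for RPMI_glcM/B27 against RPMI/B27, and 8 and 3 into 161 and 101 for HPLM/B27 against RPMI_glcM/B27.

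CA8 was lowest in Day 30 RPMI/B27 and highest in HPLM/B27. On Day 16 the 4 wells gave 2.83, 3.08, 2.99 and 2.09 TPM, a mean of 2.75 ± 0.450 (SD, n = 4). After 2 weeks in RPMI/B27 they gave 1.07, 0.804, 0.519 and 0.968 TPM, a mean of 0.841 ± 0.241 (SD, n = 4). Every Day 30 RPMI/B27 well was below every Day 16 well.

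In RPMI_glcM/B27 the CA8 level was 4.18, 3.81, 3.36 and 3.79 TPM, a mean of 3.79 ± 0.338 (SD, n = 4). The HPLM/B27 wells gave 6.68, 7.64, 8.24 and 6.45 TPM, a mean of 7.25 ± 0.835 (SD, n = 4). From low to high the order of the groups was therefore Day 30 RPMI/B27, Day 16, RPMI_glcM/B27 and HPLM/B27, and no 2 groups overlapped. The narrowest gap lay between Day 16 and RPMI_glcM/B27, whose nearest wells were 3.08 and 3.36 TPM. CA8 was selected on its Day 30 values. The share of all genes whose wells do not overlap was not counted for any comparison here.

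**Figure D1:**
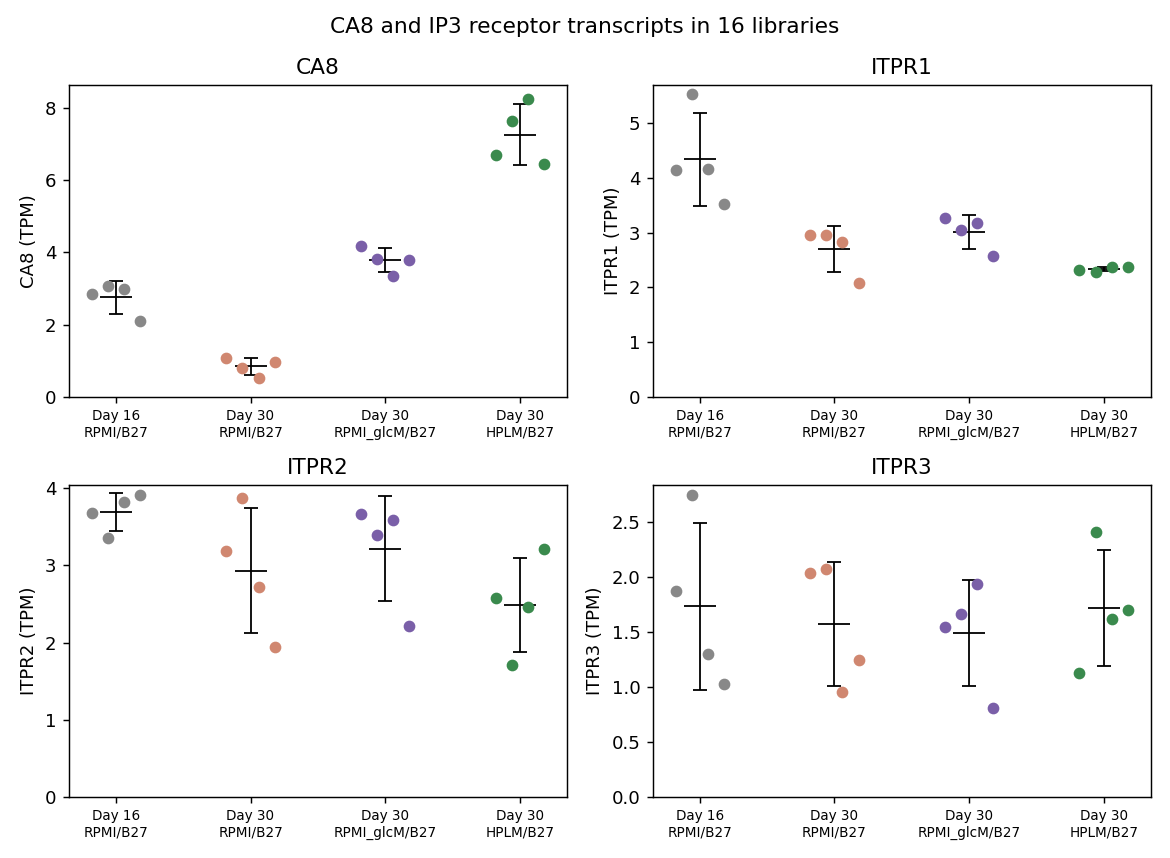
TPM of CA8, ITPR1, ITPR2 and ITPR3 (y axes, each from 0) in the 4 wells of each group (points, replicates 1 to 4 from left to right), with the group mean and SD (bars). CA8 is lowest in Day 30 RPMI/B27, at 0.519 to 1.07 TPM, and highest in HPLM/B27, at 6.45 to 8.24 TPM, whereas ITPR1 is highest on Day 16 and ITPR3 overlaps in all groups.

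Comparisons of CA8 with Day 16 use the Day 30 values that it was selected on, so they are described without a test. The CA8 mean in Day 30 RPMI/B27 was 0.306 of the Day 16 mean, with a difference in log2(TPM + 1) of -1.03 (SE 0.15). In HPLM/B27 the mean was 2.64 times the Day 16 mean, a difference of 1.14 (SE 0.15). In RPMI_glcM/B27 the difference from Day 16 was 0.36 (95% interval 0.05 to 0.67), and 0.55 after median-of-ratios rescaling. In a bulk sample, more cells that carry a transcript and more transcript per cell cannot be told apart.

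Against RPMI/B27 on the same day, the contrasts that CA8 was selected on, its mean was 4.50 times higher in RPMI_glcM/B27 and 8.63 times higher in HPLM/B27. The fitted differences were 1.39 (SE 0.15) and 2.17 (SE 0.15) on log2(TPM + 1), a scale that understates the fold of a gene near 1 TPM. On the recovered reads the log2 fold changes were 2.20 and 3.21.

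HPLM/B27 and RPMI_glcM/B27 have the same glucose concentration, and CA8 was not selected on the difference between them. Its values in both media did enter the selection, so the p-values below are not independent of it and are no separate support. The HPLM/B27 mean was 1.92 times the RPMI_glcM/B27 mean, a difference of 0.78 (SE 0.15, 95% interval 0.47 to 1.10) that missed the threshold after adjustment (limma, adjusted p = 0.0569), and 0 of the 4 genes passed, where 0.0682% of all genes were called. All 4 HPLM/B27 wells were above all 4 RPMI_glcM/B27 wells. The two-sided exact permutation p of 0.0286, unadjusted, is the smallest that 4 wells against 4 can give. The difference passed in 6 of 8 alternatives, with 1.01 on recovered reads (adjusted p = 0.000176) and 0.85 after median-of-ratios rescaling (adjusted p = 0.00185), and in 0 of the 8 analyses that left out 1 well, where the adjusted p was between 0.124 and 0.204.

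**Figure D2:**
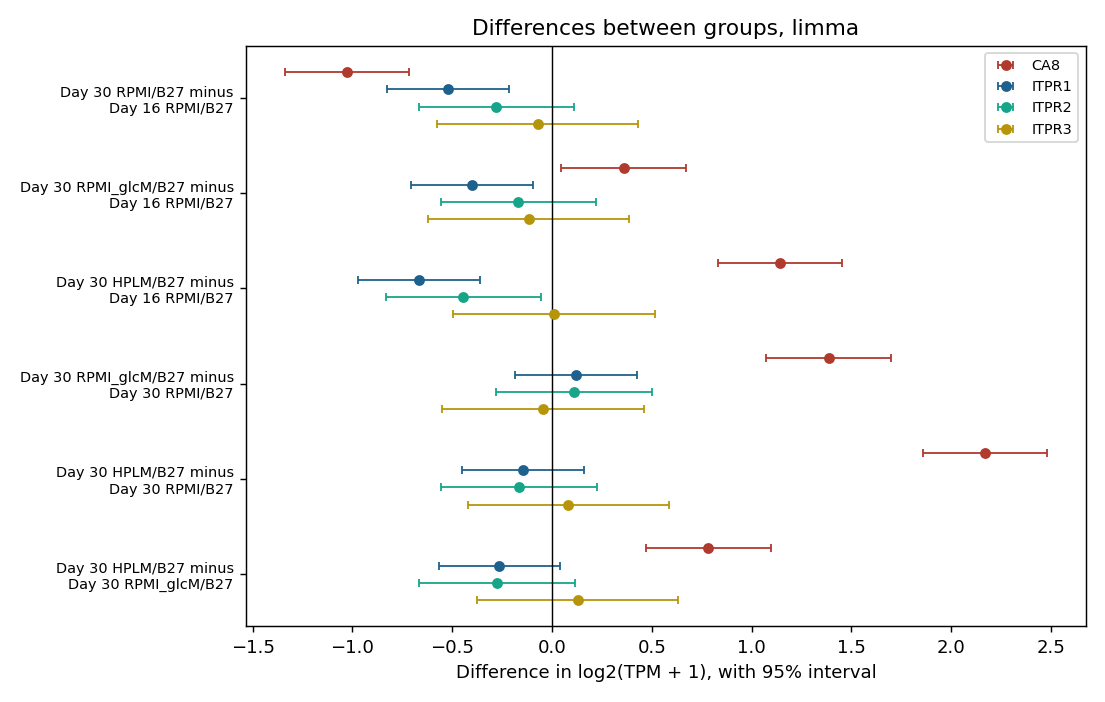
Differences in log2(TPM + 1) between groups for the 4 genes (x axis), with the 95% interval from limma (horizontal bars), for the 6 comparisons (y axis). CA8 lies at -1.03 in RPMI/B27 and at 1.14 in HPLM/B27 against Day 16, and ITPR1 lies below 0 in all 3 comparisons with Day 16. The CA8 values against Day 30 RPMI/B27, 1.39 and 2.17, are the ones it was selected on.

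Beside CA8, markers of other cell types moved with the media. Hepatic endoderm markers (8 of 8 detected, among them AFP and ALB) summed to 453 to 810 TPM on Day 16, 323 to 569 TPM in Day 30 RPMI/B27, 93.4 to 214 TPM in RPMI_glcM/B27 and 69.4 to 209 TPM in HPLM/B27. Their lower sum in both 5 mM glucose media ran opposite to CA8, and their part in the CA8 result was not tested. AFP and ALB moved apart within that sum. The AFP mean fell from 441 TPM on Day 16 to 138 TPM in Day 30 RPMI/B27, while ALB rose from 21.2 to 242 TPM. ALB alone among the 8 markers had a higher mean after those weeks than before. With 5 mM glucose AFP stood at 55.0 TPM (RPMI_glcM/B27) and 57.0 TPM (HPLM/B27), and ALB at 78.1 and 49.9 TPM, still above Day 16. Fibroblast markers (7 of 8 detected) summed to 544 to 919 TPM on Day 16 and to 178 to 438 TPM over the Day 30 groups, with the 3 Day 30 groups overlapping. Smooth muscle markers (6 of 7 detected) ranged from 242 to 1008 TPM, with Day 16 (372 to 830 TPM) above RPMI_glcM/B27 (268 to 351 TPM) and the other groups overlapping. Of 7 endothelial markers 1 averaged at least 1 TPM, and the list summed to 42.6 to 54.7 TPM on Day 16, 13.4 to 31.3 TPM in Day 30 RPMI/B27, 16.3 to 25.3 TPM in RPMI_glcM/B27 and 19.2 to 31.2 TPM in HPLM/B27. Detected here means a mean of at least 1 TPM.

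Neuron markers were present in part. Among the Purkinje neuron markers, PVALB and ZIC1 were at 0 in all 16 libraries. PCP2 and CALB1 stood at 0.662 to 2.07 and 0.910 to 5.62 TPM. Of 7 general neuron markers, 3 averaged at least 1 TPM, SNAP25 at 6.56 to 17.7, TUBB3 at 0.734 to 8.22 and NEFL at 0.905 to 10.8 TPM. The general neuron list summed to 16.6 to 23.3 TPM on Day 16, and on Day 30 to 15.8 to 26.8 TPM for RPMI/B27, 17.5 to 23.5 TPM for RPMI_glcM/B27 and 21.1 to 27.5 TPM for HPLM/B27, with all groups overlapping. The part of neuron markers in the CA8 result was not tested. ELAVL4, ELAVL3 and SYP reached at most 0.0671, 0.199 and 0.672 TPM.

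ITPR1, the receptor that CA8 binds, was highest on Day 16. The Day 16 wells gave 4.15, 5.53, 4.16 and 3.52 TPM, a mean of 4.34 ± 0.845 (SD, n = 4). Day 30 RPMI/B27 gave 2.95, 2.96, 2.83 and 2.09 TPM, a mean of 2.71 ± 0.417 (SD, n = 4). Each Day 30 well was below each Day 16 well, and the low value of 2.09 TPM came from the well with the highest RNR1 level of the series, 29276 TPM.

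In RPMI_glcM/B27 the ITPR1 wells stood at 3.27, 3.04, 3.17 and 2.58 TPM, a mean of 3.02 ± 0.305 (SD, n = 4). HPLM/B27 gave 2.32, 2.29, 2.37 and 2.37 TPM, a mean of 2.34 ± 0.0406 (SD, n = 4), the tightest group of any of the 4 genes. HPLM/B27 lay below all wells of Day 16 and of RPMI_glcM/B27, and within the range of RPMI/B27.

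Of the 3 receptor genes 1, ITPR1, passed the test against Day 16 in RPMI/B27, where 19.9% of all genes compared were called, and in HPLM/B27, where 25.4% were called. In RPMI_glcM/B27 0 of the 3 passed, where 21.1% of all genes were called. From Day 16 ITPR1 fell by 0.52 on the log2 scale in RPMI/B27 (SE 0.14, limma, adjusted p = 0.02) and by 0.67 in HPLM/B27 (SE 0.14, adjusted p = 0.00357). The difference in RPMI_glcM/B27, -0.40 (95% interval -0.71 to -0.10, adjusted p = 0.0575), missed the threshold although the wells did not overlap. The fall in HPLM/B27 passed in all 8 alternatives and with any well left out, and stood at -0.40 after median-of-ratios rescaling (adjusted p = 0.00785). The fall in RPMI/B27 was -0.26 after that rescaling (adjusted p = 0.0940) and -0.34 with limma-voom on recovered reads (adjusted p = 0.0421). It was lost without the Day 16 well at 5.53 TPM (-0.42, adjusted p = 0.0660) and without the RPMI/B27 well at 2.09 TPM (-0.44, adjusted p = 0.0583). The difference in RPMI_glcM/B27 passed without the Day 16 well at 3.52 TPM (-0.48, adjusted p = 0.0387).

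Among the Day 30 media 0 of the 3 receptor genes passed in any comparison, where 2.2% of all genes were called for RPMI_glcM/B27 against RPMI/B27 and 2.41% for HPLM/B27 against RPMI/B27. ITPR1 differed by 0.12 (95% interval -0.19 to 0.42, limma, adjusted p = 0.766) in RPMI_glcM/B27 and by -0.14 (95% interval -0.45 to 0.16, adjusted p = 0.721) in HPLM/B27. HPLM/B27 against RPMI_glcM/B27 gave -0.26 (95% interval -0.57 to 0.04, adjusted p = 0.835) without overlap of the wells.

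ITPR2, usually the main IP3 receptor of cardiomyocytes, was at the same order of level as ITPR1. Its wells gave 3.67, 3.36, 3.82 and 3.92 TPM on Day 16, a mean of 3.69 ± 0.243 (SD, n = 4). Day 30 RPMI/B27 gave 3.19, 3.87, 2.72 and 1.94 TPM, a mean of 2.93 ± 0.812 (SD, n = 4). The RPMI/B27 wells overlapped the Day 16 wells.

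RPMI_glcM/B27 wells held 3.67, 3.40, 3.59 and 2.21 TPM of ITPR2, a mean of 3.22 ± 0.680 (SD, n = 4). HPLM/B27 wells held 2.57, 1.71, 2.46 and 3.21 TPM, a mean of 2.49 ± 0.614 (SD, n = 4). All HPLM/B27 wells were below all Day 16 wells, and the 3 Day 30 groups overlapped. The difference of HPLM/B27 from Day 16 was -0.44 (95% interval -0.83 to -0.06, limma, adjusted p = 0.0847) and became -0.19 after median-of-ratios rescaling (adjusted p = 0.411). In the other 5 comparisons the ITPR2 difference lay between -0.28 and 0.11, with adjusted p from 0.284 to 0.888.

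ITPR3 had the lowest level of the 3 receptors and the widest spread relative to its mean. Day 16 wells gave 1.87, 2.74, 1.30 and 1.02 TPM, a mean of 1.73 ± 0.760 (SD, n = 4), and Day 30 RPMI/B27 gave 2.03, 2.07, 0.947 and 1.25 TPM, a mean of 1.57 ± 0.565 (SD, n = 4). RPMI_glcM/B27 gave 1.54, 1.66, 1.93 and 0.810 TPM, a mean of 1.49 ± 0.480 (SD, n = 4), and HPLM/B27 gave 1.13, 2.41, 1.62 and 1.70 TPM, a mean of 1.71 ± 0.527 (SD, n = 4). All groups overlapped. In every group the well with the least ITPR3 had an RNR1 level above 1000 TPM, between 3793 and 14387 TPM, and the part of RNR1 in the spread was not tested. The 6 differences lay between -0.12 and 0.13, with 95% intervals that reached from -0.62 to 0.63, and none of these values passed the test (limma, adjusted p from 0.763 to 0.981).

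Summed over the 3 receptors, the transcript level was 9.77 ± 1.34 TPM on Day 16, then 7.21 ± 1.64 for Day 30 RPMI/B27, 7.72 ± 1.43 for RPMI_glcM/B27 and 6.54 ± 0.529 for HPLM/B27 (mean ± SD, n = 4 each). ITPR1 made up 44.2% of that sum on Day 16 and 35.9% in HPLM/B27, ITPR2 38.6% and 37.9%, and ITPR3 17.2% and 26.2%, with single libraries between 12.1% and 37.6% for ITPR3. In single libraries ITPR1 made up at least 32.6% and ITPR2 at least 26.7%, so both were present in every medium. ITPR3 made up at least 12.1%, but its values may hold reads of UQCC2, which leaves its presence and share uncertain. RYR2, the main release channel, stood at a mean of 225.5 TPM over the 16 libraries and at 23.9 to 38.9 times the summed IP3 receptors in single libraries.

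CA8 was higher and ITPR1 lower in HPLM/B27 than on Day 16, and the level of CA8 per ITPR1 differed accordingly. The ratio of their TPM was 0.638 ± 0.0755 on Day 16, then 0.320 ± 0.121 for Day 30 RPMI/B27, 1.27 ± 0.169 for RPMI_glcM/B27 and 3.10 ± 0.362 for HPLM/B27 (mean ± SD, n = 4 each). It ran from 0.183 in a Day 30 RPMI/B27 well to 3.48 in an HPLM/B27 well. Set against the sum of all 3 receptors, CA8 was at 0.282, 0.121, 0.507 and 1.12 in the same order. The ratio rests on the CA8 values that the gene was selected on and is given without a test, and it is a ratio of transcripts, not of proteins.

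**Figure D3:**
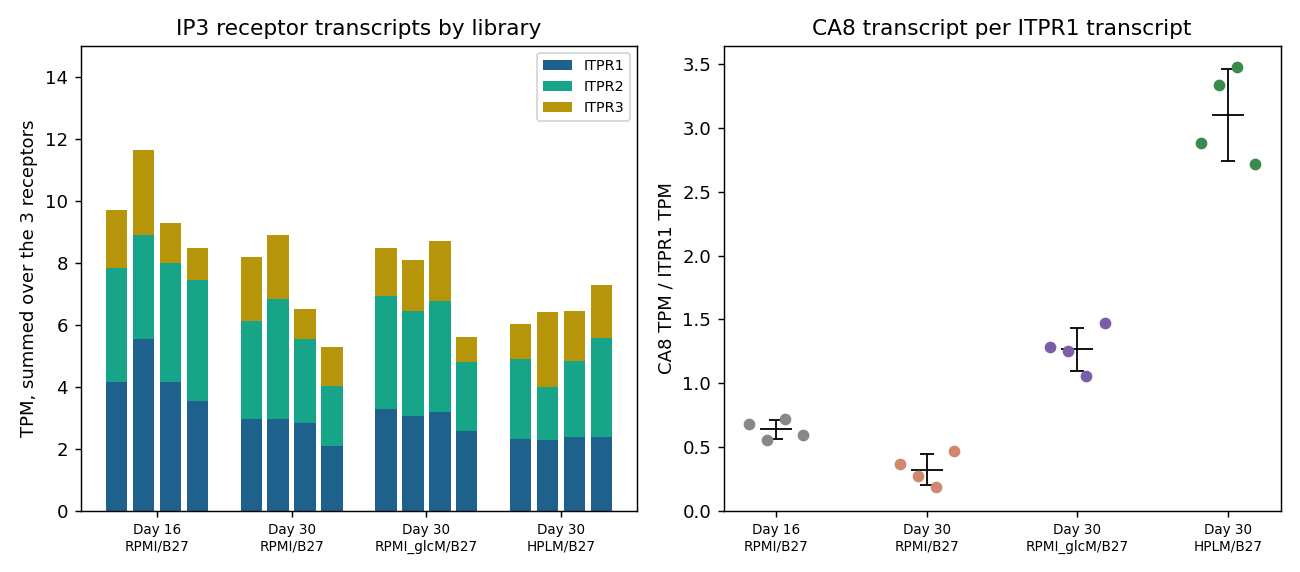
Left, TPM of ITPR1, ITPR2 and ITPR3 stacked for each of the 16 wells (y axis, from 0). Right, CA8 TPM divided by ITPR1 TPM in each well (points) with the group mean and SD (bars). The receptor sums lie between 5.28 and 11.6 TPM, while the ratio goes from 0.320 on average in Day 30 RPMI/B27 to 3.10 in HPLM/B27.

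Across the 16 libraries, which share their groups and their ribosomal RNA carry-over, log2(TPM + 1) of CA8 had Pearson's r of -0.18 with ITPR1, -0.24 with ITPR2 and 0.15 with ITPR3. ITPR1 and ITPR2 had r = 0.68, and the 2 other receptor pairs 0.34 and 0.15.

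The 5 genes whose pattern was most like CA8, among 9753 genes averaging 5 TPM or more, were PPARGC1A (r = 0.94), GEM (0.93), MRPL34 (0.93), NEFL (0.93) and HK2 (0.91). PPARGC1A, the transcriptional coactivator of mitochondrial biogenesis, had means of 51.0 ± 6.42, 30.4 ± 6.38, 58.2 ± 7.96 and 78.0 ± 11.8 TPM (SD, n = 4 each), given as Day 16, Day 30 RPMI/B27, RPMI_glcM/B27, HPLM/B27. GEM, a small GTP-binding protein that restrains L-type calcium channels, went from 14.6 to 10.6, 19.6 and 34.6 TPM in the same order. MRPL34, a protein of the mitochondrial ribosome, had 17.3, 13.4, 23.4 and 28.1 TPM. NEFL, the neurofilament light chain and one of the neuron markers above, had 4.26, 2.06, 8.01 and 9.46 TPM, and HK2, the hexokinase of muscle and heart that starts glycolysis, 42.0, 23.3, 44.3 and 56.5 TPM. Their order over the groups follows from choosing them for likeness to CA8.

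The 16 libraries share 4 group means, which enter each r. After subtraction of these means, r with CA8 was 0.48 for PPARGC1A, 0.50 for GEM, 0.66 for MRPL34, 0.67 for NEFL and 0.39 for HK2. Between HPLM/B27 and RPMI_glcM/B27 GEM differed by 0.78 and PPARGC1A, HK2, MRPL34 and NEFL by 0.41, 0.33, 0.25 and 0.21 on log2(TPM + 1). These values are given without a test, since the genes were picked for their likeness over the same libraries.

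**Figure D4:**
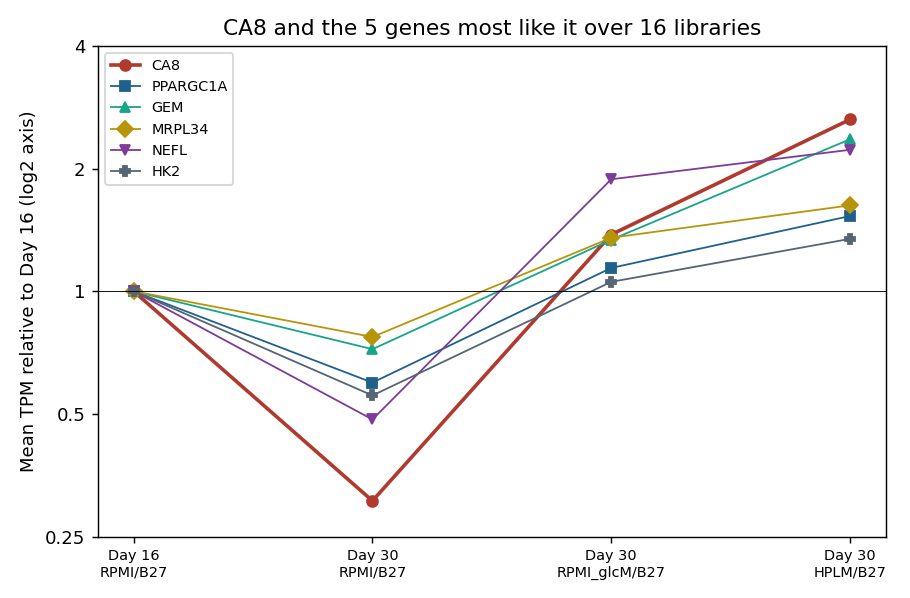
Group mean TPM relative to Day 16 (y axis, log2 scale) for CA8 and the 5 genes with the highest Pearson's r with it, in the 4 groups (x axis). The 5 genes were chosen for likeness to CA8, and all 6 lines dip in Day 30 RPMI/B27, where CA8 is at 0.306 of Day 16, and end highest in HPLM/B27, where CA8 is at 2.64.

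The receptor genes had other companions. ITPR1 was most like RNA45SN4, a 45S pre-ribosomal RNA locus (r = 0.95), TOMM34, a cochaperone of mitochondrial import (0.95), and KCNIP2, the subunit of the transient outward potassium channel (0.94). KCNIP2 went from 151 ± 54.8 TPM on Day 16 to 65.1 ± 21.7, 56.6 ± 10.3 and 38.5 ± 5.73 TPM on Day 30, in the order RPMI/B27, RPMI_glcM/B27, HPLM/B27. ITPR2 was most like POGK (0.88), PHF13 (0.86) and FN3KRP (0.86). ITPR3 was most like LOC107984877 (0.93), TMEM63A (0.89) and DNASE2 (0.89), and with group means subtracted these r were 0.94, 0.89 and 0.89.

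Of 30 further genes known to bind or regulate IP3 receptors, 26 were compared. Against Day 16, 11 were lower in each of the 3 Day 30 groups, and 0, 1 and 0 were higher, in the order RPMI/B27, RPMI_glcM/B27, HPLM/B27. The medians were -0.45, -0.45 and -0.42 beside -0.28, -0.22 and -0.29 for all genes, of which 17.8%, 17.8% and 22.4% were lower and 2.08%, 3.34% and 3.0% higher. After median-of-ratios rescaling the counts were 5, 9 and 7 lower and 2, 3 and 5 higher, beside 8.91%, 14.2% and 12.5% lower and 8.62%, 13.4% and 12.9% higher of all genes. The 3 comparisons share the Day 16 libraries.

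TMBIM6, an endoplasmic reticulum protein that binds IP3 receptors and limits cell death, fell from 148 ± 30.3 TPM to 77.4 ± 4.31 TPM in HPLM/B27, by 0.91 on the log2 scale (limma, adjusted p = 0.0029). MRVI1, the gene of the cGMP kinase substrate IRAG that restrains ITPR1 in smooth muscle, went from 3.57 ± 0.692 to 1.41 ± 0.195 TPM (-0.92, adjusted p = 0.00148). ERLIN1, part of the complex that marks activated IP3 receptors for degradation, went from 9.78 ± 1.23 to 5.32 ± 0.802 TPM (-0.77, adjusted p = 0.0109). These 3 also passed in RPMI/B27 and RPMI_glcM/B27, and in all 3 media after median-of-ratios rescaling.

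At Day 30, 2 of the 26 partners were higher in each 5 mM glucose medium than in RPMI/B27 and 0 were lower, where 2.2% and 2.41% of all genes were called. They were HSPA9 and VDAC1, which hold IP3 receptors to mitochondria, HSPA9 as the chaperone that links the channel to VDAC1 in the outer mitochondrial membrane. VDAC1 had 106 ± 25.9 TPM in RPMI/B27, 166 ± 10.4 in RPMI_glcM/B27 (difference 0.67, limma, adjusted p = 0.0214) and 176 ± 14.6 in HPLM/B27 (0.76, adjusted p = 0.00929). HSPA9 had 108 ± 12.2, 174 ± 8.61 (0.69, adjusted p = 0.00134) and 151 ± 7.90 TPM (0.50, adjusted p = 0.0107). On Day 16 VDAC1 stood at 166 ± 18.2 TPM, near both 5 mM glucose media, with RPMI/B27 below. HSPA9 stood at 130 ± 7.75 TPM on Day 16. It was higher than that in RPMI_glcM/B27 (0.42, limma, adjusted p = 0.00551) and did not pass in HPLM/B27 (0.22, adjusted p = 0.0984). Both genes also work in mitochondria apart from IP3 receptors, as an anion channel and as a protein import motor. Between HPLM/B27 and RPMI_glcM/B27 0 of 26 passed. CHGB, also on the list of 30, averaged below 1 TPM and was not compared. Its Day 30 mean with standard RPMI was 2.70 ± 0.340 TPM, beside 0.152 ± 0.0490 TPM on Day 16. Both 5 mM glucose media held less than standard RPMI, 0.530 ± 0.202 TPM (RPMI_glcM/B27) and 0.111 ± 0.106 TPM (HPLM/B27). With RPMI/B27 as reference, median-of-ratios rescaling left 2 partners up and 0 down in RPMI_glcM/B27. Of all genes, 6.17% went up and 5.89% down there. For HPLM/B27 the partners gave 3 up and 1 down, beside 7.05% and 5.87%. Moving from RPMI_glcM/B27 to HPLM/B27, 2 partners went up and 0 down, beside 0.999% and 0.626%.

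**Figure D5:**
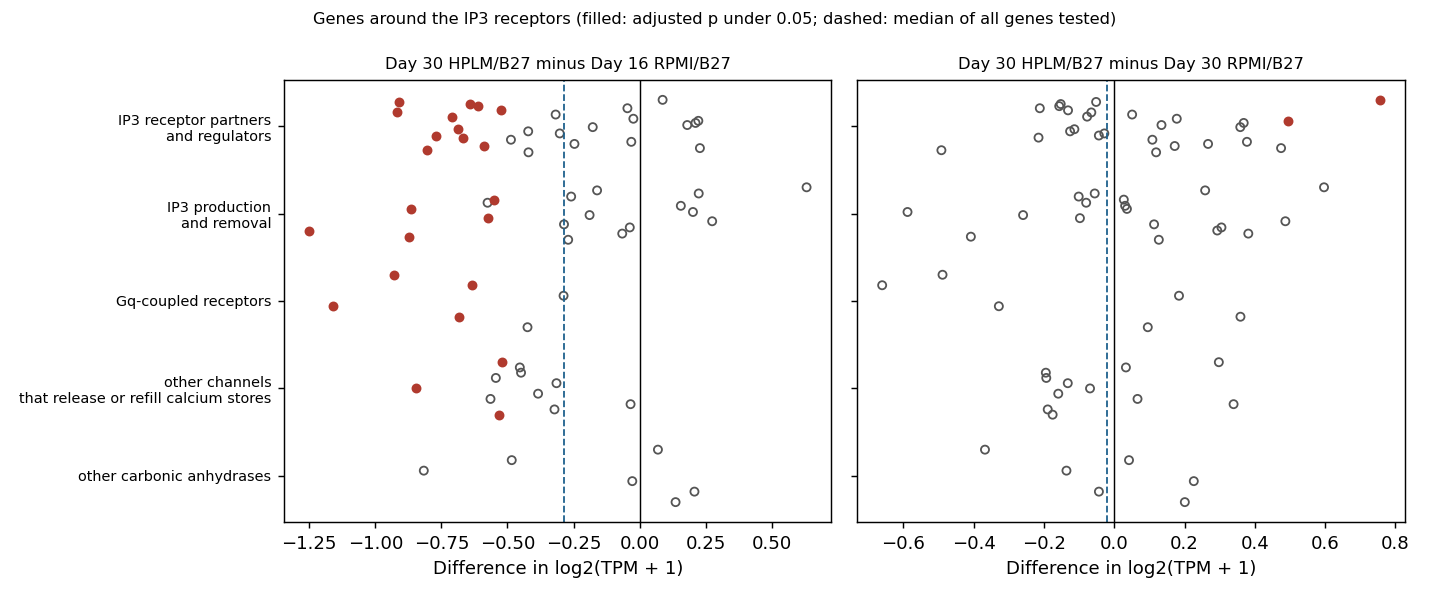
Differences in log2(TPM + 1) (x axis) for the genes of the 5 lists (y axis), for HPLM/B27 against Day 16 (left) and against Day 30 RPMI/B27 (right). Filled points passed the test, and the dashed line marks the median of all genes compared, -0.29 on the left and -0.02 on the right. On the left 11 of 26 receptor partners are filled, all below 0, and on the right the 2 filled points are HSPA9 and VDAC1.

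The enzymes and G proteins that make or remove IP3 formed a list of 24, with 18 compared. Against Day 16, 4, 4 and 5 were lower and 1, 0 and 0 higher, in the order of media above. Of all genes 17.8%, 17.8% and 22.4% were lower. The medians were -0.40, -0.20 and -0.22, beside the -0.28, -0.22 and -0.29 of all genes, and rescaling by median of ratios gave 2, 4 and 3 lower and 4, 3 and 5 higher. IMPA2, an inositol monophosphatase that recycles inositol, fell from 4.13 ± 1.48 TPM to 0.721 ± 0.287 in RPMI/B27 (-1.54, limma, adjusted p = 0.000277) and to 1.11 ± 0.325 in HPLM/B27 (-1.25, adjusted p = 0.000766). PLCB3, a phospholipase C that Gq activates, fell from 7.46 ± 0.685 TPM to 3.58 ± 0.811, 3.30 ± 0.508 and 3.68 ± 0.686 TPM in that order. GNAQ, the Gq alpha subunit, fell from 43.7 ± 4.07 to 24.6 ± 4.20 TPM in RPMI_glcM/B27 and 23.4 ± 2.10 in HPLM/B27. PLCB2, another phospholipase C, rose in RPMI/B27 from 4.27 ± 0.609 to 8.19 ± 1.65 TPM (0.79, adjusted p = 0.00554). The calls named for IMPA2, PLCB3, GNAQ and PLCB2 held after rescaling. Rescaled, PLCB2 was also higher than on Day 16 in RPMI_glcM/B27 (0.61, limma, adjusted p = 0.00215) and HPLM/B27 (0.48, adjusted p = 0.0115). Among the Day 30 media 0 of 18 passed before rescaling, beside 2.2% and 2.41% of all genes with RPMI/B27 as reference. Rescaled, 2 went up and 4 down in RPMI_glcM/B27, beside 6.17% and 5.89%. In HPLM/B27 4 went up and 2 down, beside 7.05% and 5.87%. Both media held less GNAQ (-0.42 and -0.41, limma, adjusted p = 0.00472 and 0.0052) and PLCB2 (-0.46 and -0.59, adjusted p = 0.0296 and 0.00651) than that reference. From RPMI_glcM/B27 to HPLM/B27 1 went up.

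Of 15 receptors that signal through Gq, 6 were high enough to be compared, and the alpha-1 adrenergic receptor genes ADRA1A, ADRA1B and ADRA1D and the angiotensin receptor gene AGTR1 were not among them. Against Day 16, 3, 3 and 4 of the 6 were lower and 0 higher in that order, beside 17.8%, 17.8% and 22.4% of all genes lower. After rescaling 2, 2 and 3 were lower, beside 8.91%, 14.2% and 12.5%. F2R, the thrombin receptor, fell from 18.2 ± 4.22 TPM to 10.1 ± 3.66, 6.80 ± 2.04 and 7.51 ± 1.39 TPM. EDNRB, the endothelin B receptor, fell from 3.74 ± 0.592 to 1.36 ± 0.679, 1.53 ± 0.198 and 1.97 ± 0.514 TPM. Both passed in all 3 media and after rescaling, beside fibroblast and endothelial markers that were also lower on Day 30, whose part in this was not tested. At Day 30 0 of 6 passed between media before rescaling, beside 2.2% and 2.41% of all genes with RPMI/B27 as reference. Rescaled, F2R was lower in RPMI_glcM/B27 (-0.55, limma, adjusted p = 0.0289), where 5.89% of all genes were lower. OXTR (-0.66, adjusted p = 0.017) and P2RY1 (-0.48, adjusted p = 0.0289), also on the list, were lower in HPLM/B27, beside 5.87%. None were higher.

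Other channels that release calcium from stores or refill them numbered 15, with 11 compared. From Day 16, 3, 4 and 3 of the 11 were lower and 0 higher in that order of media, beside the same shares of all genes (17.8%, 17.8% and 22.4%), with ORAI3, a store-operated channel of the plasma membrane, going from 13.4 ± 2.75 TPM to 7.72 ± 3.39, 6.68 ± 1.97 and 6.97 ± 1.52. MCU, the mitochondrial calcium uniporter, fell from 10.7 ± 1.19 TPM to 6.36 ± 0.815 in RPMI_glcM/B27 and 7.13 ± 0.887 in HPLM/B27. After rescaling, 1, 4 and 0 were lower and 0, 1 and 0 higher, and the MCU and ORAI3 calls in HPLM/B27 were lost (limma, adjusted p = 0.151 and 0.0504). The ORAI3 call in RPMI/B27 was lost as well (-0.48, adjusted p = 0.1005), and that in RPMI_glcM/B27 passed (-0.67, adjusted p = 0.0157). None of the 11 passed between Day 30 media before rescaling, beside 2.2% and 2.41% of all genes with RPMI/B27 as reference. Rescaled, RPMI_glcM/B27 had 1 channel gene up and 2 down from that reference, MCU among the latter (-0.39, limma, adjusted p = 0.032). Of all genes 6.17% went up and 5.89% down. HPLM/B27 had 0 calls from the reference. From RPMI_glcM/B27 to HPLM/B27 1 went down, beside 0.626% of all genes.

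The rest of the family of CA8 gave no call before rescaling. Of 14 other carbonic anhydrase genes 6 were compared, and 0 passed in any of the 6 comparisons. Of all genes 19.9%, 21.1% and 25.4% were called against Day 16, 2.2% and 2.41% against Day 30 RPMI/B27, and 0.0682% between the 5 mM glucose media. For 6 genes at these shares, 0 calls do not set CA8 apart from its family. CA11, another member without enzyme activity, was at 8.76 ± 2.84, 10.5 ± 2.83, 8.63 ± 2.29 and 9.97 ± 0.575 TPM on Day 16 and then in the order RPMI/B27, RPMI_glcM/B27, HPLM/B27. CA14, a membrane-bound active enzyme, was at 9.26 ± 5.46, 5.24 ± 2.58, 4.48 ± 1.24 and 4.39 ± 1.12 TPM. CA10, the remaining member without activity, reached at most 0.319 TPM, and CA6 was listed at 0 in all 16 libraries. After rescaling, 1 of the 6 was higher in RPMI/B27 and 1 in HPLM/B27 against Day 16, beside 8.62% and 12.9% of all genes higher.

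The nearest protein-coding genes to CA8 were TOX at 1066.3 kb and RAB2A at 235.5 kb. TOX was at 6.63 ± 1.01, 6.32 ± 1.59, 9.76 ± 2.33 and 8.52 ± 0.537 TPM in the same order of groups, and RAB2A at 92.3 ± 5.79, 81.9 ± 17.6, 72.4 ± 7.79 and 69.0 ± 1.20 TPM. Of these, RAB2A was lower in HPLM/B27 than on Day 16 (-0.41, limma, adjusted p = 0.0315), where CA8 was higher. On one side of ITPR1, at 26.1 kb, SUMF1 was at 4.22 ± 0.452, 4.01 ± 1.33, 3.55 ± 0.283 and 2.74 ± 0.525 TPM, and it passed in 0 of the 6 comparisons (HPLM/B27 against Day 16 gave -0.49, adjusted p = 0.0553). On the other side, at 131.9 kb, BHLHE40, a transcriptional repressor of the circadian clock and of stress responses, went the other way from ITPR1. It rose from 6.66 ± 4.64 TPM on Day 16 to 23.9 ± 10.1 in RPMI/B27 (1.83, limma, adjusted p = 0.00544), 33.1 ± 9.97 in RPMI_glcM/B27 (2.33, adjusted p = 0.000635) and 43.8 ± 12.4 in HPLM/B27 (2.73, adjusted p = 0.000188). Beside ITPR2, SSPN, a muscle membrane protein gene, rose in HPLM/B27 from 16.4 ± 1.64 to 28.0 ± 4.63 TPM (0.73, adjusted p = 0.00202), where ITPR2 differed by -0.44. On its other side, at 72.0 kb, INTS13 was at 21.4 ± 0.974 TPM on Day 16 and lower in RPMI/B27, at 15.3 ± 2.88 TPM (-0.47, adjusted p = 0.0258). Beside ITPR3, BAK1 at 40.1 kb had group means between 7.96 ± 2.29 and 11.5 ± 2.23 TPM and passed in 0 of the 6 comparisons, and IP6K3 at 25.1 kb was too low to be compared.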

How the data were processed

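Stranded total RNA libraries of 16 wells were aligned to hg38 with STAR 2.5.3a and counted with featureCounts 2.0.3, per the submitters' processing notes. The annotation and strand setting are not given in the sources used here. The authors deposited TPM, which are read counts per unit of gene length brought to a sum of 1000000 in each library, for 43388 genes. The authors tested counts with DESeq2.

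Here the 16122 genes averaging 1 TPM or more entered limma 3.58.1 (R 4.3.3, lmFit and eBayes with trend) as log2(TPM + 1), the 4 groups in 1 fit, with Benjamini-Hochberg adjustment within each comparison and a threshold of 0.05. Whole reads were recovered from ratios of TPM between libraries for 31046 of the 31047 genes above 0, all but RNR2. Single values were also compared by a two-sided exact permutation test. Fits of CA8 against Day 16 are given without p-values, because CA8 was selected on the Day 30 libraries in them. The design text speaks of fewer wells per medium than the labels list, and all 4 labelled wells per group were used.

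Named are the 4 genes, up to 4 genes past the threshold with the largest change per list and comparison, the genes with the highest Pearson's r (5 for CA8, 3 for each receptor), RYR2 and the nearest protein-coding genes. Markers, genes named as not compared, and the other carbonic anhydrases were named from their lists. A Purkinje neuron marker and the sum of that list are not reported here. The members and lists were chosen with earlier results of these data known. Alternatives were a pseudocount of 0.1, other filters, rescaling by median of ratios or without mitochondrial and ribosomal RNA genes, 2 groups only, a replicate block, RNR1 as a covariate, limma-voom on reads (mean of at least 10) and each well left out. The scripts were tested on simulated data.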

Additional observations from a re-analysis of the deposited data

Results flagged for a closer look

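ITPR1 in Day 30 RPMI/B27 held 1 well far from the others, at 2.09 TPM beside 2.83, 2.95 and 2.96 TPM. The gap was 0.851 of the range of the group. This was 1 of 16 groups of 4 wells examined over the 4 genes, and chance alone marks about 1 in 20. The same well had 29276 TPM of RNR1 and the lowest ITPR2 value of its group, 1.94 TPM, and the part of RNR1 was not tested.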

How the results depend on the processing

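For CA8, RPMI_glcM/B27 against Day 16, described without a test, was 0.55 after median-of-ratios rescaling, 0.46 with RNR1 as a covariate and 0.74 on recovered reads. HPLM/B27 against RPMI_glcM/B27, media whose CA8 values both entered the selection, passed the threshold under the same 3 settings (0.85, 0.77 and 1.01). It also passed without mitochondrial and ribosomal RNA genes (0.94), with 2 groups only (0.78) and with the replicate block (0.78). Against Day 30 RPMI/B27, CA8 moved to 2.08 and 3.00 with a pseudocount of 0.1, to 1.63 and 2.57 without mitochondrial and ribosomal RNA genes and to 2.20 and 3.21 on reads, for RPMI_glcM/B27 before HPLM/B27.

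For ITPR1, the fall in RPMI/B27 from Day 16 was lost after median-of-ratios rescaling (-0.26), with 2 groups only (-0.52) and with RNR1 as a covariate (-0.38), and the difference in RPMI_glcM/B27 passed without mitochondrial and ribosomal RNA genes (-0.42) and with the replicate block (-0.40). The causes were not tested. Small differences of uncalled genes changed sign. ITPR2 in RPMI_glcM/B27 against Day 16 became 0.029 after median-of-ratios rescaling and 0.057 on reads. ITPR3 became 0.12, 0.29 and 0.19 in RPMI/B27 and 0.041, 0.089 and 0.065 in RPMI_glcM/B27 against Day 16, under median-of-ratios rescaling, the RNR1 covariate and reads, and -0.099 in HPLM/B27 against RPMI/B27 with the RNR1 covariate.

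With 1 well left out, ITPR1 ranged from -0.60 to -0.42 in RPMI/B27 and from -0.48 to -0.30 in RPMI_glcM/B27 against Day 16, passing in 6 and 1 of 8 cases. ITPR3 ranged from -0.20 to 0.092 in RPMI/B27, from -0.25 to 0.047 in RPMI_glcM/B27 and from -0.12 to 0.17 in HPLM/B27 against Day 16. Within Day 30 it ranged from -0.17 to 0.10 and -0.043 to 0.19 against RPMI/B27 and from -0.017 to 0.24 for HPLM/B27 against RPMI_glcM/B27, and ITPR2 from -0.022 to 0.24 for RPMI_glcM/B27 against RPMI/B27. None of the 4 genes reached a mean of 5 TPM, so that filter gave no value. Under the other settings 163 values stayed the same, 9 changed sign, 11 gained and 3 lost a call, and 6 moved. Of the gains 2 were ITPR1 and the rest CA8 on values it was selected on. Same meant the same direction and side of the threshold. For CA8 against Day 30 RPMI/B27, not tested, it meant the same direction and a shift below its SD within groups, a larger shift being moved. CA8 against Day 16, given without a test, was counted by the threshold.

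Same-numbered wells deviated together with r from -0.07 to 0.21 (mean 0.043) over 24 pairs of libraries, and differently numbered ones from -0.31 to 0.16 (mean -0.015) over 72. With the replicate block the counts of genes called against Day 16 rose from 3203, 3400 and 4088 to 4734, 4487 and 5520. Those against RPMI/B27 rose from 354 and 388 to 721 and 732. These values do not settle whether the numbers pair the wells. The replicate block changed the call of CA8 for HPLM/B27 against RPMI_glcM/B27 (limma, adjusted p = 0.0460). Both media entered the selection of CA8, so that call is no separate support. The block also changed the call of ITPR1 for RPMI_glcM/B27 against Day 16 (limma, adjusted p = 0.0322). The count of all genes called for HPLM/B27 against RPMI_glcM/B27 moved from 11 to 48. That count was 14 with a pseudocount of 0.1, 262 after median-of-ratios rescaling, 80 without mitochondrial and ribosomal RNA genes, 33 with 2 groups only, 91 with the RNR1 covariate, 268 on reads, and 1 to 5 with a well left out. The counts for RPMI_glcM/B27 and HPLM/B27 against RPMI/B27, 354 and 388, ranged from 45 and 81 with 2 groups only to 1993 and 2484 on reads. The count for RPMI/B27 against Day 16, 3203, was 998 with 2 groups only and 1385 with the RNR1 covariate. With a well left out the 3 counts against Day 16 were 1744 to 5012, 2330 to 3311 and 2792 to 4101, and the 2 against RPMI/B27 144 to 439 and 186 to 519. Reads limit ITPR3 most, at 27 to 102 per library.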
